A study of Mus musculus with 64 samples.

Results

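AP-1 is a family of transcription factors that bind DNA as pairs of subunits. The 9 subunit genes examined here were Jun, Junb, Jund, Fos, Fosb, Fosl1, Fosl2, Atf3 and Batf3, taken by symbol from 55809 genes counted in each of 64 bulk RNA sequencing libraries of mouse regulatory T (Treg) cells. They were chosen with results of these data known, and were selected on the infant values, in which Jun differed between the groups, so the infant values are given as a description, with no test. The 64 libraries make up 28 groups, and 5 of the 9 genes (Jun, Junb, Jund, Fos and Fosl2) had a count in every library. The level of a gene is given as CPM, its read pairs per 1000000 read pairs counted in the library.

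The study asked when Treg cells need Foxp3, the transcription factor that defines them, and used 2 mouse systems. In the degron system Foxp3 was fused to an auxin-inducible degron (AID), and the same allele expressed ZsGreen and Cre. Mice were Foxp3-AID ROSA26-TIR1(F74G), in which Cre removes a stop cassette so that the plant F-box protein TIR1(F74G) destroys the fusion protein in the presence of 5-ph-IAA, or Foxp3-AID ROSA26-WT. Both genotypes therefore carried the tagged Foxp3, and both received 5-ph-IAA for 7 days. The groups were active Treg cells (CD62L low) of spleen and lymph nodes and CD73-negative, newly made Treg cells of the thymus, both from adults and with 3 libraries per genotype, and Treg cells of infants (treated from the first day of life) with 4 libraries per genotype. In adults the study used heterozygous females, in which X inactivation leaves only part of the Treg cells with the tagged allele, and cells that carry it were sorted. In the reversible system a loxP-Thy1.1-STOP-loxP cassette blocks Foxp3, and cells that transcribe the blocked allele are called wannabe Treg cells. After 1 dose of 4-hydroxytamoxifen, CD4-CreERT2 removes the cassette and restores a Foxp3-GFP protein. Foxp3-LSLCD4-CreERT2 cells (plusFoxp3) and Foxp3-LSLCD4-WT cells (minusFoxp3) were collected without treatment (day 0) and after 3, 7, 14 and 28 days, each as a resting and an active population and with 2 libraries per group. Untreated Foxp3GFP mice gave 2 libraries each of resting and active Treg cells with an intact gene. Cre driven by CD4-CreERT2 is not limited to Treg cells, and the minusFoxp3 cells lack Cre altogether. The study used heterozygous females here too, which also hold functional Treg cells with an intact Foxp3 allele. For days 3 to 28 it sorted restored cells by GFP, and controls by Thy1.1 without GFP. The 2 kinds of cells thus differ in sorting gate as well as in Cre. The labels state no strain. The study describes the libraries of a group in the adult degron and reversible systems as independent biological replicates, and the labels do not say whether each came from 1 animal or from a pool.

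Some labels contradict each other. For the 12 adult degron libraries, the file attached to a sample carries in its header the name of a library of the opposite genotype. Groups were assigned by the name in the header, and every sign of a TIR1 against WT difference turns if the attachment is right instead. For the 8 infant libraries the title and the genotype field name opposite genotypes, so their 2 groups are named by title only. Foxp3 mRNA was not used to assign groups. Named by the header, it was at 158, 144 and 181 CPM in thymic WT and 168, 144 and 157 CPM in thymic TIR1 libraries, which overlap, and at 99.95, 104 and 127 CPM in active WT and 83.4, 93.4 and 76.7 CPM in active TIR1 libraries, which do not. In the reversible system Foxp3 mRNA followed the labels, at 44.3 to 81.5 CPM in the 20 minusFoxp3 libraries, 50.7 to 80.7 CPM in the 4 plusFoxp3 libraries of day 0, 426 to 615 CPM in the 16 later plusFoxp3 libraries and 636 to 817 CPM in the 4 GFP Treg libraries. Libraries held 27753211 to 57419138 counted read pairs. Summed levels of marker lists for other cells stayed low in the degron libraries, with B cell genes at 11.02 to 57.8 CPM and myeloid genes at 0.325 to 10.9 CPM, and no pair of libraries of a group agreed within sampling noise.

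AP-1 proteins carry a basic leucine zipper (bZIP), with which a Jun protein pairs with another Jun protein or with a Fos or ATF protein. Many of the genes are immediate-early genes, whose RNA rises within minutes of a signal without new protein being made and decays quickly. In T cells, the T cell receptor and co-stimulation drive them through MAP kinases, and AP-1 binds DNA together with NFAT, or with IRF4 where a BATF protein replaces Fos. Cell stress is also known to induce them.

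Promoters are shown for Jun, Junb, Fos and Fosb, the well-counted members that differed most between libraries of a group in the reversible system, because the known inputs of these genes act there. Each line runs 5′ to 3′ on the gene's strand from 250 bases before to 50 bases after the start in RefSeq (mouse build GRCm38.p6), and a promoter was found for 8 of the 9 members. Capitals mark TGACG on either strand, a core of the site that CREB and ATF proteins bind, or TGACNTCA, a form of the site that Jun and ATF2 bind in the Jun promoter. The positions, in that build, are chr4:95052173-95052472 (minus strand) for Jun, chr8:84978699-84978998 (minus strand) for Junb, chr12:85473640-85473939 (plus strand) for Fos and chr7:19309996-19310295 (minus strand) for Fosb.
Jun: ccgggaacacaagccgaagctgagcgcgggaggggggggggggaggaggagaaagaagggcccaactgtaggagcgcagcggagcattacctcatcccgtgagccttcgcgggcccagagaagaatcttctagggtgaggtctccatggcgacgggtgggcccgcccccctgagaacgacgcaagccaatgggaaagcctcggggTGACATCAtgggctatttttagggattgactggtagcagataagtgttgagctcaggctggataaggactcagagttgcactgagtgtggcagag
Junb: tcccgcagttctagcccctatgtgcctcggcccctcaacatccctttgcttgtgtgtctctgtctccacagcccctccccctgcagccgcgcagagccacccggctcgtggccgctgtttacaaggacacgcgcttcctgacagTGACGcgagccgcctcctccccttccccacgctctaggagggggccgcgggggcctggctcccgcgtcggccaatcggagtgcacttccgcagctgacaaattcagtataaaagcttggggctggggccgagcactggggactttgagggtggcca
Fos: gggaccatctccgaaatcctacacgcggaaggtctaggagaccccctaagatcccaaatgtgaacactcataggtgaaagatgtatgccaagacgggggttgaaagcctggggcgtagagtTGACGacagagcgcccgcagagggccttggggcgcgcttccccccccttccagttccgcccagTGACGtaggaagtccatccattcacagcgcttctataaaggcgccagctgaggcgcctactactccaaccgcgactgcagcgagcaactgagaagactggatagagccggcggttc
Fosb: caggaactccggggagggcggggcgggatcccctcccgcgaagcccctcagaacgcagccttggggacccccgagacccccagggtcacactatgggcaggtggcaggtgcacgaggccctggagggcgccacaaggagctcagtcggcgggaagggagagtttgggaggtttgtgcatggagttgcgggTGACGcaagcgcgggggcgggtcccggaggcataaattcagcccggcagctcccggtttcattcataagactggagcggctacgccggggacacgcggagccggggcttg
The letters TGACG were found in the promoters of Junb, Fos, Fosb and Atf3 and in 20.8% of 32851 promoters of this length, counting both strands. TGACNTCA was found in that of Jun and in 8.83% of all, and TATAAA in those of Junb and Fos and in 13.6% of all. TGACTCA, the site that AP-1 itself prefers, was in 5.2% of all promoters and in none of the 8. TGACNTCA and TGACG can overlap, and a match is a description of the letters only.

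In the files' build (GRCm39), Jun lies on chromosome 4 from 94937271 to 94940459, Junb on chromosome 8 from 85701113 to 85705347, Jund on chromosome 8 from 71151599 to 71153265, and Fos on chromosome 12 from 85520664 to 85524047. Fosb lies on chromosome 7 from 19036621 to 19043976 and Fosl2 on chromosome 5 from 32293145 to 32315186. Exons of Junos overlap those of Jun on the other strand, as do Prdx2 with Junb, Gm11175 with Jund and Ccdc85b with Fosl1. Counting did not use strand, so reads from these stretches cannot be told apart.

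In the WT libraries of the degron system, newly made thymic Treg cells had less RNA of Jun, Junb, Fos and Fosb than active Treg cells of spleen and lymph nodes, and more of Jund. Jun, the founding subunit and a target of the kinase JNK, was at 35.1, 28.3 and 50.3 CPM in the thymus and at 346, 435 and 501 CPM in active cells. Fos, whose protein cannot pair with itself and needs a Jun partner, was at 28.3, 27.8 and 27.4 CPM against 358, 343 and 465 CPM. For both genes every thymic library lay well below every active library. The edgeR log2 difference, thymic less active, was -3.59 (SE 0.28, adjusted p = 2.2e-06) for Jun, which is 12.0-fold lower, and -3.89 (SE 0.28, adjusted p = 1.3e-06) for Fos, which is 14.9-fold lower.

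Junb, a Jun protein with a weaker transactivation domain that effector Treg cells are known to need, was at 435, 403 and 438 CPM in thymic and 1332, 1559 and 1404 CPM in active WT cells (log2 difference -1.85, SE 0.12, edgeR adjusted p = 6.5e-07). Jund, which is expressed more steadily than the other Jun genes and often opposes growth, went the other way: it was at 778, 814 and 735 CPM in the thymus and at 509, 590 and 503 CPM in active cells (log2 difference 0.45, SE 0.09, edgeR adjusted p = 0.0034). Neither gene had a library in which the order of the tissues was reversed. Fosb, a Fos protein with a splice form that lacks the activation domain, was at 0, 0.335 and 0 CPM against 11.2, 6.28 and 7.27 CPM (log2 difference -6.23, SE 1.54, edgeR adjusted p = 0.012). Its thymic level rests on counts in 1 library, and a count of 0 allows up to 0.106 and 0.103 CPM in the others. In all, 5 of the 7 members tested passed the threshold (adjusted p under 0.05), 4 lower and 1 higher in the thymus, against 23% of all 14769 genes tested. Fewer cells of a type and less RNA per cell cannot be told apart in bulk libraries. In the thymic WT libraries the summed level of double-positive thymocyte genes was 55.3 to 66.0 CPM against 11.1 to 15.3 CPM in active WT libraries, with Rag1, Rag2 and Ptcra at 0 in the thymus, and its part in these differences was not tested.

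Fosl2, a Fos protein that lacks the activation domain of Fos, was at 4.75, 7.23 and 2.96 CPM in thymic WT cells and at 6.52, 11.9 and 7.21 CPM in active WT cells. The ranges overlapped, and the difference did not pass the threshold (log2 difference -0.87, SE 0.57, edgeR adjusted p = 0.32). Atf3, a stress-induced ATF protein that mostly represses, was at 0 in the 3 thymic WT libraries, which allows up to 0.106 CPM, and at 1.80, 0 and 1.95 CPM in active WT cells. edgeR did not call it (adjusted p = 0.09), while DESeq2 did (adjusted p = 0.042). Fosl1 stayed at or under 0.360 CPM in the 20 degron libraries. Batf3, a small bZIP protein known from dendritic cells and memory T cells, had a count in only 2 of the 20, and the highest level was 0.0928 CPM.

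The make-up of the pool of these 9 genes differed with these levels. Batf, another bZIP gene, is not among them and had a mean of 53.2 CPM in thymic and 259 CPM in active WT cells. Scaled per kilobase of exon so that genes can be compared, Jund made up 69.0% of the summed level of the 9 genes in thymic WT cells, Junb 27.4%, Jun 1.77% and Fos 1.76%. In active WT cells the leading gene was Junb with 50%, followed by Jund with 25.7%, Fos with 13.3% and Jun with 10.7%. The sum itself was 659 to 685 CPM per kilobase in the thymic and 1148 to 1316 CPM per kilobase in the active libraries, which did not overlap. Infant cells held an intermediate mixture: in the libraries titled WT, Junb made up 48.4%, Jund 42.6%, Jun 4.52% and Fos 4.38%.

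The degron comparison asked whether AP-1 RNA differed after 7 days of Foxp3 loss. In thymic cells Jun was at 62.0, 116 and 69.9 CPM in the TIR1 libraries against the 28.3 to 50.3 CPM of WT, and the libraries did not overlap. The means were 82.5 ± 29.0 and 37.9 ± 11.2 CPM (SD, n = 3 each). The log2 difference was 1.12 (SE 0.29), a 2.17-fold higher level, but with an edgeR adjusted p of 0.49 (unadjusted p = 0.0044) it was not called, while DESeq2 called it (adjusted p = 0.012). Jun was the sole member of the 6 tested whose libraries did not overlap, as was the case for 13% of 14245 genes. edgeR called no gene in this contrast (0%), with 1050 genes at an unadjusted p under 0.05, and DESeq2 called 160.

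The other members differed less in the thymus. Junb was at 346, 437 and 394 CPM in TIR1 libraries (log2 difference -0.12, edgeR adjusted p = 0.86), within reach of the WT values. Jund was at 726, 700 and 789 CPM (log2 difference -0.08, edgeR adjusted p = 0.91). Fos was at 28.1, 54.0 and 31.7 CPM (log2 difference 0.44, SE 0.26, edgeR adjusted p = 0.78), and the library with the highest Fos was also the one with the highest Jun. Fosb was at 0.898, 1.68 and 0 CPM and Fosl2 at 7.42, 4.70 and 2.34 CPM. Both overlapped with WT.

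In active cells Jun did not share the thymic direction. It was at 434, 490 and 328 CPM in TIR1 libraries, a spread that encloses most of the WT values (log2 difference -0.07, SE 0.18). The Jun difference in the thymus exceeded that in active cells by 1.19 on the log2 scale (SE 0.36), and this difference of differences was not called by edgeR (unadjusted p = 0.0061, adjusted p = 0.68), as no gene was (0% of 14769, with 984 at an unadjusted p under 0.05 and 71 called by DESeq2). Fosl2 was lower in active TIR1 cells, at 3.96, 4.10 and 1.41 CPM, than in any WT library (log2 difference -1.48, SE 0.52, edgeR unadjusted p = 0.02, adjusted p = 1). Jund was likewise lower in every TIR1 library, at 474, 456 and 466 CPM (log2 difference -0.23, SE 0.12, edgeR adjusted p = 1). Those 2 of 7 members did not overlap between genotypes, against 10.1% of 14554 genes. No gene was called in active cells by edgeR (0%), where 672 had an unadjusted p under 0.05, and DESeq2 called 22, no member among them. Junb and Fos overlapped, at 1522, 1438 and 1099 CPM and at 264, 512 and 374 CPM in TIR1 libraries.

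In infant cells, Jun was at 180, 189, 171 and 215 CPM in the libraries titled TIR1 and at 84.3, 84.7, 89.8 and 87.4 CPM in those titled WT, with means of 189 ± 19.1 and 86.6 ± 2.56 CPM (SD, n = 4 each). Every library titled TIR1 lay far above every library titled WT, and the log2 difference was 1.145. Fos was at 74.2, 85.6, 70.6 and 129 CPM against 65.8, 57.9, 67.2 and 57.3 CPM, a log2 difference of 0.55, and again no library titled WT reached one titled TIR1. The remaining members overlapped. Junb was at 678, 678, 591 and 981 CPM against 861, 660, 627 and 574 CPM (log2 difference 0.12), and Jund at 345, 358, 388 and 466 CPM against 456, 472, 391 and 400 CPM (log2 difference -0.12). Of the per-kilobase pool, Jun made up 9.22% in libraries titled TIR1 against 4.52% in those titled WT. Non-overlap held for 8.73% of 16209 genes and calls by edgeR for 0.0185%, and nothing is read from either, since the choice of members used this contrast. The summed level of active-state genes was 641 to 867 CPM in libraries titled TIR1 and 255 to 686 CPM in those titled WT, that of heat shock genes 2206 to 2803 and 2587 to 3655 CPM, and their part in the Jun values was not tested.

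**Figure D1:**
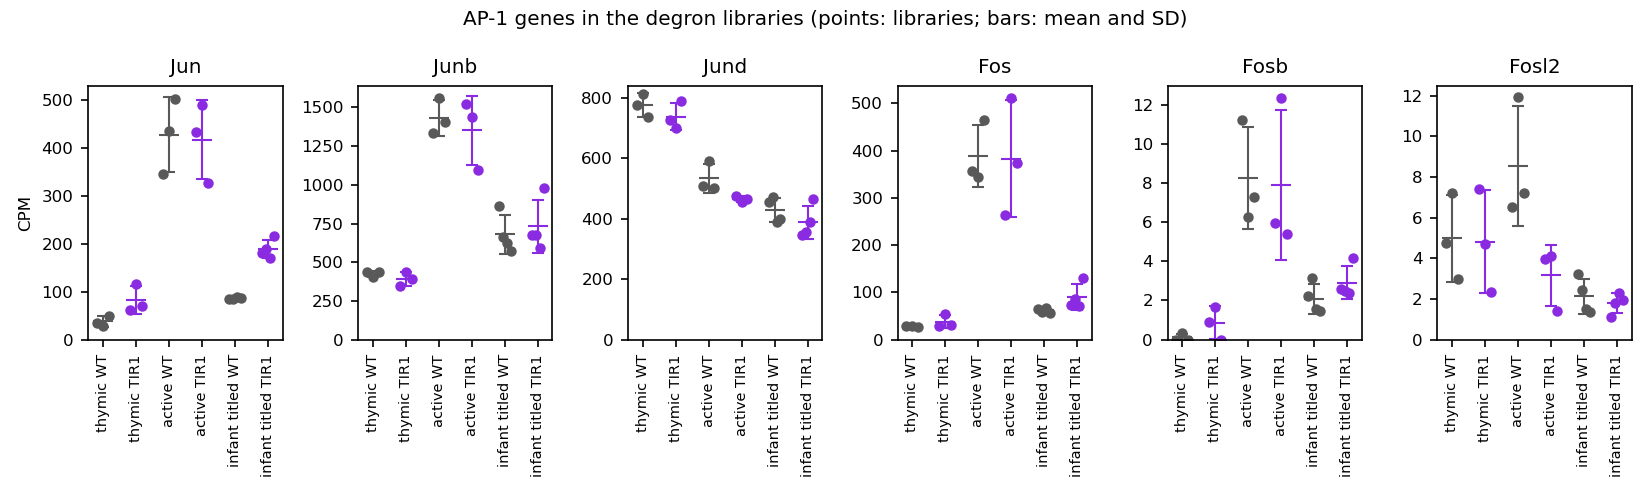
Levels of 6 AP-1 genes in CPM in the degron libraries, by tissue and genotype, or by title in infant cells (points are libraries, horizontal bars are means and vertical bars are the SD). Jun and Fos are lowest in thymic cells and highest in active cells. Jun libraries do not overlap between genotypes in thymic cells (28.3 to 50.3 against 62.0 to 116 CPM, not called by edgeR) and overlap in active cells. The infant Jun values, on which the members were selected, are shown by title as a description only.

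In the reversible system counts were made with another setting, so its levels are not set against those of the degron libraries. AP-1 genes differed between the library numbered 1 and the library numbered 2 of the same minusFoxp3 group. Fos was at 534 and 2186 CPM in the resting libraries of day 0, at 572 and 2809 CPM on day 3, at 1143 and 4321 CPM on day 7, at 1979 and 3586 CPM on day 14 and at 435 and 3659 CPM on day 28. In active cells the corresponding pairs were 548 and 2603, 748 and 3731, 952 and 4735, 1796 and 4567, and 538 and 4647 CPM. In each of the 10 groups the library numbered 2 was the higher, by 1.81-fold at the least, 4.83-fold at the median and 8.64-fold at the most.

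Jun showed the same order in all 10 minusFoxp3 groups. Its pairs were 983 and 2718, 1274 and 2489, 1939 and 3536, 2088 and 3901, and 1351 and 3811 CPM in resting cells, and 1502 and 3435, 1736 and 4118, 1700 and 4385, 2507 and 4509, and 1923 and 4998 CPM in active cells, for days 0, 3, 7, 14 and 28. The ratio of the library numbered 2 to the library numbered 1 was between 1.80 and 2.82. Junb was higher in the library numbered 2 by 1.60-fold to 2.17-fold, Jund by 1.30-fold to 2.10-fold and Fosb by 1.75-fold to 8.80-fold, again in 10 of 10 groups. Fosb ran from 10.01 to 40.4 CPM in the libraries numbered 1 and from 31.8 to 98.7 CPM in those numbered 2 among resting cells, and from 16.9 to 34.8 and from 45.4 to 149 CPM among active cells.

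Of the low members, Atf3 was higher in the library numbered 2 in 9 of 10 groups, with a median ratio of 10.9, and Fosl2 in 9 of 10 with a median ratio of 1.41. Fosl1 was higher in 7 and Batf3 in 5 of the 10. Thus 5 of 9 members were higher in the library numbered 2 in every minusFoxp3 group, against 2.54% of the 20790 genes tested. The 10 groups are not independent repeats, because resting and active libraries of the same day and number deviated together. Of all genes tested, 692 were lower in that library in every minusFoxp3 group, and no member was. The median gene differed by -0.03 on the log2 scale, and taking out each group's median left the 5 members at 10 of 10. In plusFoxp3 groups no member had that order throughout (0.924% of all genes did): Jun was higher in the library numbered 2 in 5, Junb in 6, Jund in 3, Fos in 6 and Fosb in 8 of 10 groups. These plusFoxp3 groups include the untreated ones of day 0, whose Foxp3 mRNA (50.7 to 80.7 CPM) lay within the minusFoxp3 range. In the GFP Treg groups Fos lay close within each pair, at 1607 and 1545 CPM in resting and 1426 and 1239 CPM in active cells, while Junb was higher in the library numbered 2, at 2922 and 4151 CPM and at 2671 and 4717 CPM.

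**Figure D2:**
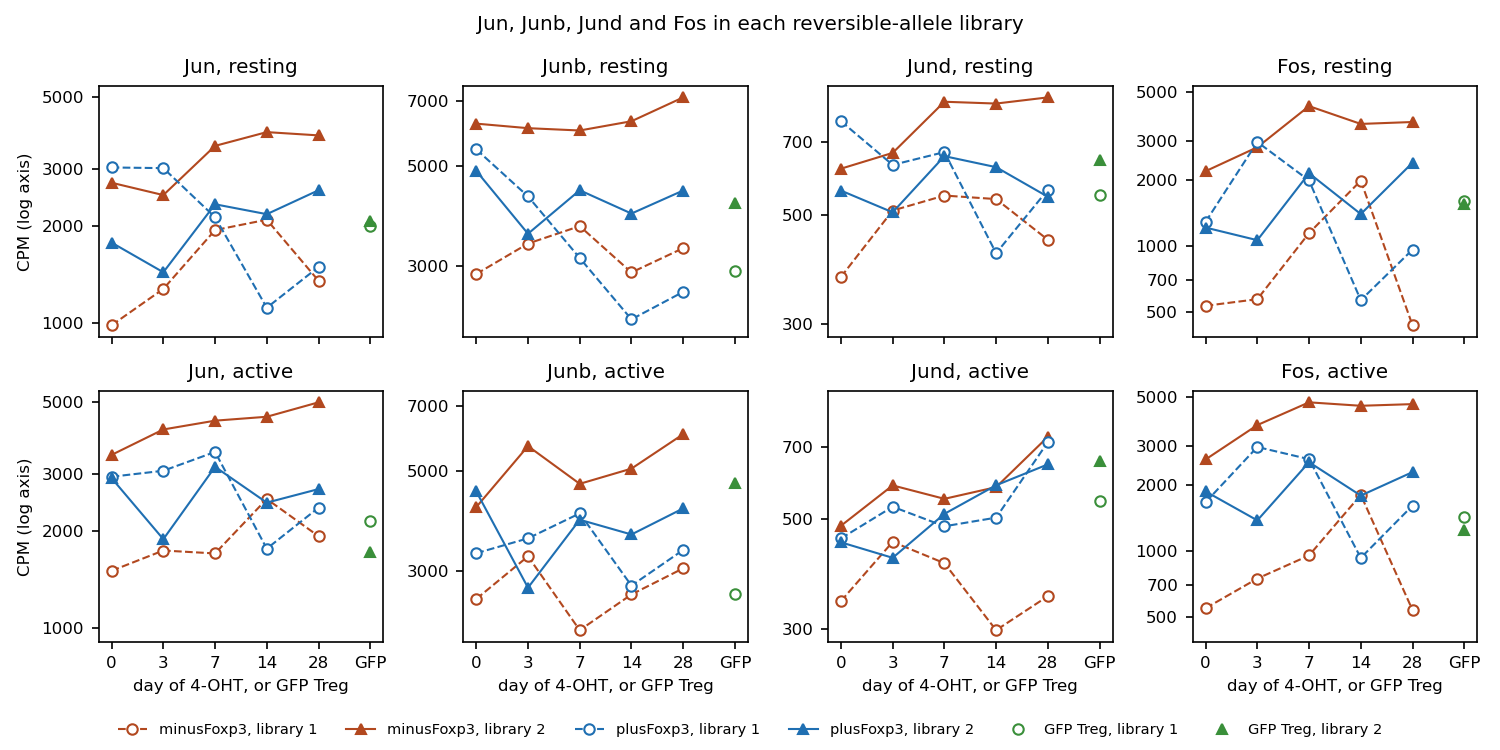
Levels of Jun, Junb, Jund and Fos in CPM (log axis) by day in resting and active cells of the reversible system, with lines joining libraries of the same number, which do not follow an animal, and GFP Treg libraries at the right. In the minusFoxp3 groups the line of the libraries numbered 2 lies above that of the libraries numbered 1 at each day, with Fos at 435 against 3659 CPM in resting cells on day 28.

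The resting and active libraries of a group shared this order. For Jun, Junb, Jund, Fos and Fosb the library that was higher in the resting cells was also higher in the active cells on 5 of 5 days in minusFoxp3 groups. In plusFoxp3 groups this held on 4 days for Jun and Jund, on 3 for Junb and Fos and on 5 for Fosb, although there the higher library was sometimes number 1. On day 3, for instance, plusFoxp3 libraries 1 and 2 held Fos at 2968 and 1061 CPM in resting and 2966 and 1375 CPM in active cells. The labels number the libraries so that all those of replicate 1 come before those of replicate 2. The study describes them as independent biological replicates, and whether a number also marks a sort day or a preparation cannot be told apart.

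**Figure D3:**
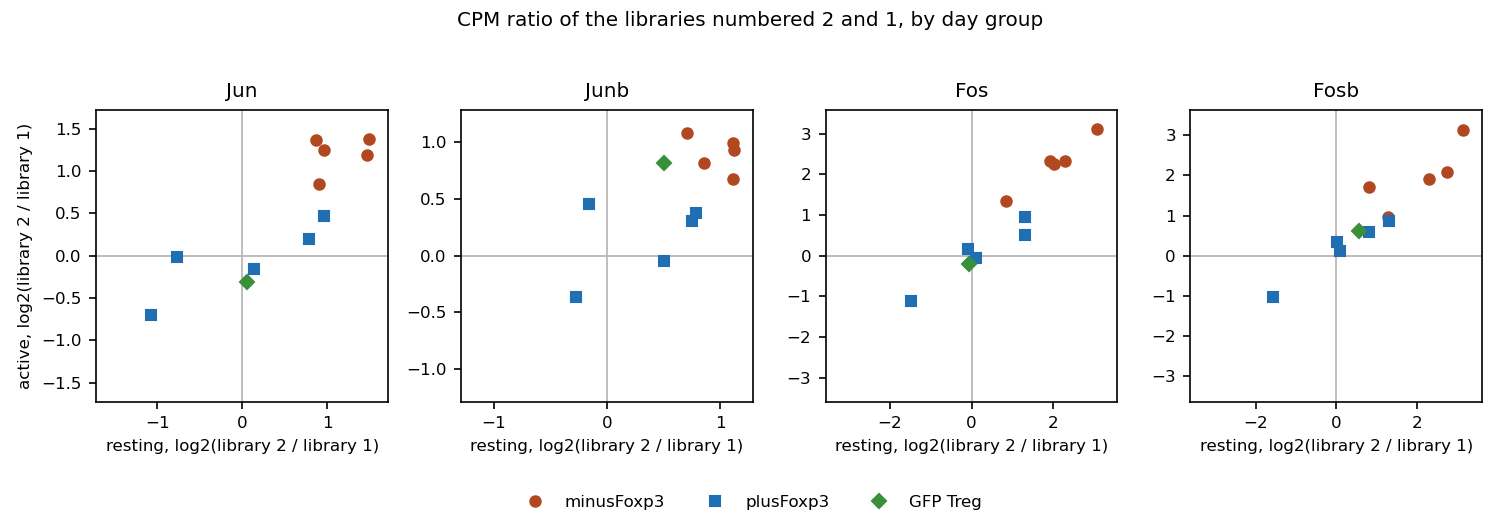
The log2 ratio of the library numbered 2 to the library numbered 1 in active cells (vertical) against that in resting cells (horizontal) for Jun, Junb, Fos and Fosb, with a point per day and genotype and 1 for GFP Treg cells. All minusFoxp3 points lie above 0 on both axes, whereas plusFoxp3 points lie on both sides of 0 for all 4 genes.

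Part of the immediate-early, feedback and heat shock genes had the same order in minusFoxp3 cells, which 2.54% of all 20790 genes had. Among 20 other immediate-early genes, 10 were higher in the library numbered 2 in all 10 groups, with a list median of 0.70 on the log2 scale. Klf4 was 3.96-fold higher at the median, Egr1, a zinc finger factor induced by MAP kinase signalling, 2.23-fold and Klf6 2.12-fold. Of 16 feedback inhibitors 6 were so ordered, including Dusp1, a phosphatase that inactivates MAP kinases (2.96-fold), and Zfp36, which destabilises immediate-early mRNAs (1.86-fold). Of 10 heat shock genes 4 were so ordered, with Hspa1a 43.3-fold, Hspa1b 26.2-fold and Dnajb1 2.74-fold higher at the median.

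Few of the genes that feed into AP-1 or pair with it had the order, which 2.54% of all 20790 genes had. The lists are small, so a low count is not read as a difference from other genes. It held for 1 of 19 kinases and SRF inputs (Map2k7), for 0 of 6 NFAT and IRF partners, for 2 of 22 other bZIP genes (Cebpb and Atf4, with 2 in the reverse order) and for 2 of 12 AP-1 responsive T cell genes (Cd69 and Tnf). Summed levels ran from 4791 to 7552 CPM for the 9 AP-1 genes in the minusFoxp3 libraries numbered 1 and from 10750 to 16601 CPM in those numbered 2. Those of the heat shock list were 2212 to 4348 and 3289 to 9264 CPM, those of myeloid genes 1.62 to 22.04 and 3.27 to 28.9 CPM and those of B cell genes 11.7 to 30.7 and 15.0 to 32.5 CPM. Total counts were similar, at 43904953 to 57049049 and 42746339 to 52659055 read pairs. The part of heat shock, or of other cells, in the AP-1 difference was not tested.

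The restoration comparison asked whether AP-1 RNA differed once Foxp3 was expressed again. Over days 3 to 28, the edgeR difference of plusFoxp3 less minusFoxp3 was not called for any of the 9 members in either state, while 4.73% of 20520 genes were called in resting and 6.22% of 20776 in active cells. DESeq2 called no member either. At an unadjusted p under 0.05 were 2 members in resting cells (Fosb and Fosl2) and 0 in active cells. In resting cells Jun differed by -0.29 (SE 0.29, 95% interval -0.86 to 0.28, edgeR adjusted p = 0.66), Fos by -0.47 (SE 0.47, interval -1.38 to 0.46, adjusted p = 0.66) and Junb by -0.42 (SE 0.24, adjusted p = 0.40) on the log2 scale. Fosb differed by -1.04 (SE 0.48, adjusted p = 0.27) and Fosl2 by -0.44 (SE 0.20, adjusted p = 0.27). In active cells Jun differed by -0.30 (SE 0.25, adjusted p = 0.65), Fos by -0.43 (SE 0.47, adjusted p = 0.75), Jund by 0.17 (adjusted p = 0.68) and Atf3 by -1.41 (SE 0.77, adjusted p = 0.39). The interval for Fos includes levels more than 2-fold lower in plusFoxp3 cells.

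The libraries of a group were often far apart. In active cells of days 3, 7, 14 and 28, Jun was at 3067 and 1882, 3508 and 3154, 1759 and 2443, and 2356 and 2691 CPM in the plusFoxp3 pairs. On days 3, 7 and 28 both values lay between those of the 2 minusFoxp3 libraries. Fos in active plusFoxp3 cells was at 2966 and 1375, 2611 and 2530, 928 and 1783, and 1605 and 2280 CPM. Read within the libraries numbered 2, Fos was lower in plusFoxp3 than in minusFoxp3 cells on 4 of 4 days, by a mean of -1.10 in resting and -1.18 in active cells on the log2 scale, and Jun by -0.70 and -0.85. Within the libraries numbered 1 Fos was higher in plusFoxp3 cells on 3 of 4 days in both states, by means of 0.63 and 1.02, and Jun on 3 of 4 days, by 0.15 and 0.41. The direction of the difference thus turned with the number, and with the days taken as replicates edgeR called 3 members (Junb, Fos and Fosb) in resting and 4 (Jun, Junb, Fos and Fosb) in active cells among the libraries numbered 2, beside 2.08% and 2.66% of all genes. Among those numbered 1 it called 0 members, beside 3.26% and 0.543%. This reading was added after the data were seen. For Jun, Junb, Fos and Fosb the minusFoxp3 libraries numbered 2 were already known to be the higher ones. A lower plusFoxp3 level among the libraries numbered 2 was thus partly built in. Days are also not replicates of a condition, so no effect of restoration is read from these calls.

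**Figure D4:**
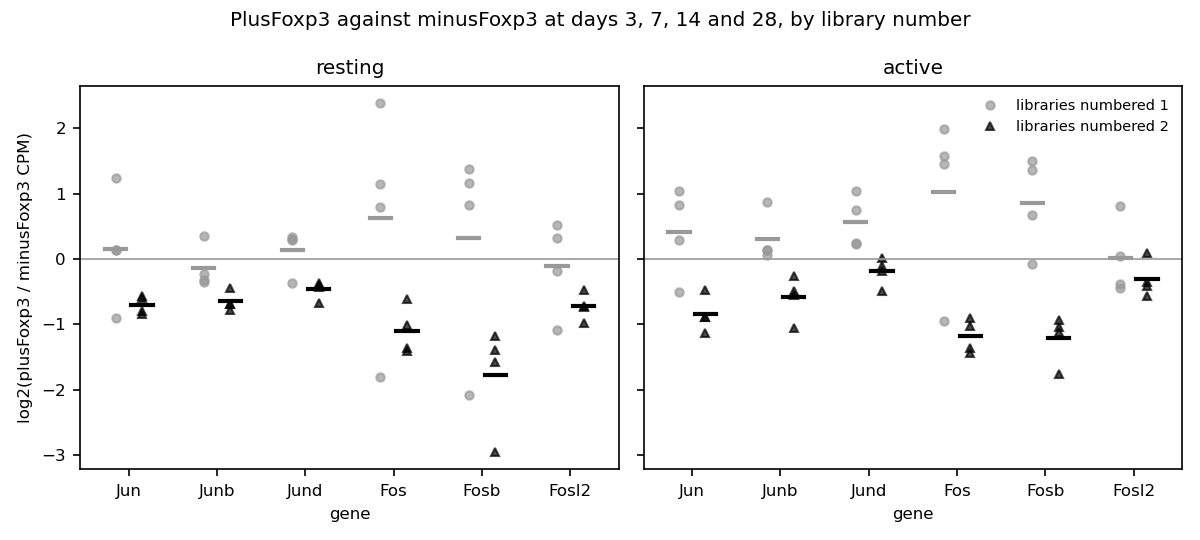
The log2 ratio of plusFoxp3 to minusFoxp3 CPM at days 3, 7, 14 and 28 for 6 AP-1 genes in resting and active cells, with libraries numbered 1 and numbered 2 shown apart and horizontal bars at their means. For Jun, Junb, Fos and Fosb the libraries numbered 2 lie below 0 on all 4 days in both states, and most of those numbered 1 lie above 0 for Jun, Fos and Fosb.

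No member was called at any single day in either state, and the smallest edgeR adjusted p among 45 member tests was 0.43 in resting and 0.55 in active cells, both for Fosl2, the sole member at an unadjusted p under 0.05 (resting, day 3). The effect of restoration was not shown to differ between states, with Jund nearest (0.33, SE 0.24, edgeR adjusted p = 0.66) and 1.82% of 20790 genes called. Against untreated minusFoxp3 cells, GFP Treg cells differed in no member by the edgeR threshold, while 2.91% of genes were called in resting and 10% in active cells. In active cells Jund was nearest (log2 difference 0.57, SE 0.31, edgeR adjusted p = 0.35). Days among minusFoxp3 cells differed for no member and no gene (0% in both states), with 559 genes at an unadjusted p under 0.05 in resting and 710 in active cells. In these comparisons 0 members were at an unadjusted p under 0.05, and DESeq2 called 0 members, and 47 and 71 genes among days.

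Active and resting cells differed in Fosl2. In minusFoxp3 cells it ran from 2.48 to 6.59 CPM in the 10 resting libraries (median 4.90) and from 7.87 to 16.0 CPM in the 10 active ones (median 13.5), without overlap. The log2 difference was 1.49 (SE 0.17, 2.81-fold, edgeR adjusted p = 3.1e-08). In plusFoxp3 cells the ranges were 2.05 to 5.08 and 8.44 to 17.2 CPM, again apart, and in GFP Treg cells the libraries were at 3.44 and 4.07 against 10.8 and 6.57 CPM (log2 difference 1.19, SE 0.38, edgeR adjusted p = 0.082). Atf3 was the other member called, with a log2 difference of 1.90 (SE 0.73, edgeR adjusted p = 0.041), from 0.0424 to 2.24 CPM in resting and from 0.0958 to 9.28 CPM in active minusFoxp3 cells. That call was lost when any of 11 of the 20 libraries was left out, and without active day 14 replicate 2 the difference was 0.85 (adjusted p = 0.43). The 2 called members of 9 stood beside 37.9% of 20790 genes.

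Compared with the spread between libraries, the other members did not pass. Jun differed by 0.38 (SE 0.26, edgeR adjusted p = 0.28), Fos by 0.25 (SE 0.46, adjusted p = 0.72), Fosb by 0.54 (SE 0.43, adjusted p = 0.36), Junb by -0.28 (SE 0.21, adjusted p = 0.33) and Jund by -0.37 (SE 0.15, adjusted p = 0.059). Set side by side by day and number, however, the active library was above its resting counterpart in 9 of 10 minusFoxp3 pairs for Jun, 8 of 10 for Fos and 9 of 10 for Fosb, and below it in 10 of 10 for Junb and Jund. In plusFoxp3 pairs it was above in 9 of 10 for Jun, 8 of 10 for Fos and 10 of 10 for Fosb. For Junb and Jund it was below in 7 of 10 plusFoxp3 pairs. With the minusFoxp3 pairs as a replicate block, edgeR called 7 members, among 44.3% of 20834 genes. This pairing was taken from the data and not from the labels. The log2 differences became 0.38 (SE 0.07, adjusted p = 0.00059) for Jun, 0.20 (SE 0.07, adjusted p = 0.026) for Fos, 0.59 (SE 0.10, adjusted p = 0.00019) for Fosb, -0.26 (SE 0.07, adjusted p = 0.0047) for Junb and -0.37 (SE 0.07, adjusted p = 0.00036) for Jund. The estimates barely moved while their errors narrowed, and the narrower errors hold only as far as the pairing does. Fosl1 and Batf3 passed in neither fit (adjusted p = 0.12 and 0.90 in the block).

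**Figure D5:**
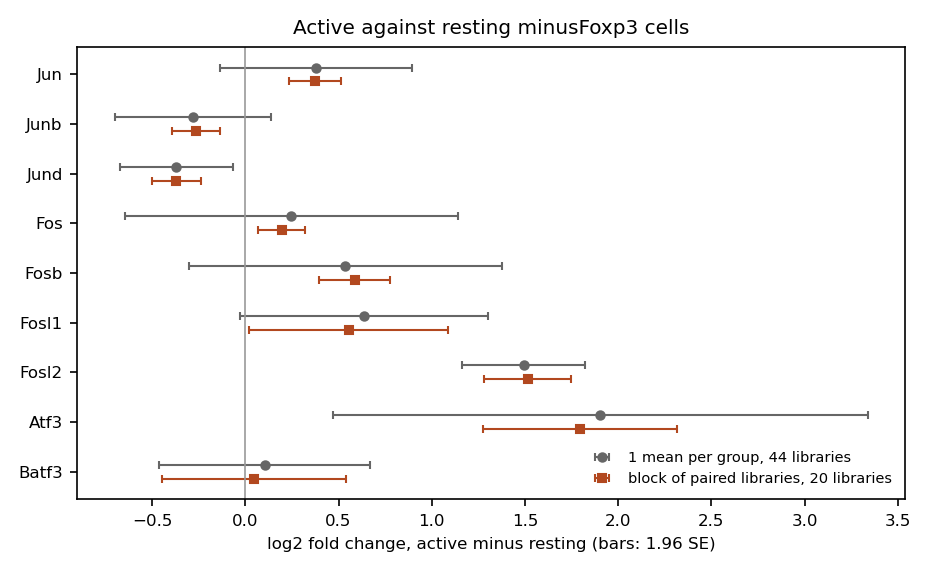
The log2 difference of active less resting minusFoxp3 cells for the AP-1 genes with 95% intervals, from the fit of 44 libraries without a block and from the fit of 20 libraries with day and number as a block. Fosl2 lies at 1.49 and 1.52 and clear of 0 in both, whereas Jun, Junb, Fos and Fosb clear 0 in the fit with the block alone.

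Junb led the pool of the 9 genes throughout the reversible system. Per kilobase, Junb made up 38.5% to 58.9% of the pool as a mean per group, Jun 16.0% to 25.5%, Fos 13.6% to 29.6% and Jund 6.04% to 12.4%. Junb had the largest share in 22 of 22 groups, while Jun was ahead of Fos in 10 and behind it in 12. Fosl1 stayed between 0.116 and 1.17 CPM, Batf3 between 0.557 and 2.72 CPM and Atf3 between 0.0424 and 9.28 CPM over the 44 libraries. The spread between the libraries of a group had a median of 1.31 on the log2 scale for Fos, 1.00 for Fosb, 0.86 for Jun, 0.73 for Junb, 0.38 for Jund and 0.34 for Fosl2.

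Genes of the pathway around AP-1 were called in both directions between thymic and active WT cells. The counts below stand beside 23% of all 14769 genes called in this contrast, 1361 higher and 2043 lower in the thymus. Of 14 feedback inhibitors tested, 6 were higher and 5 lower in the thymus. Dusp10, which dephosphorylates JNK and p38, was higher there (log2 difference 2.27, SE 0.15, edgeR adjusted p = 7.5e-07) and Spry1 lower (-1.87, SE 0.32, adjusted p = 0.00094). Of 20 other immediate-early genes, 4 were higher and 6 lower: Nr4a1, an orphan nuclear receptor that reports T cell receptor signalling, was higher (2.03, SE 0.12, edgeR adjusted p = 2.8e-07), as was Klf2 (1.09, SE 0.10, adjusted p = 6.3e-06), while Gadd45b (-2.001, SE 0.13, adjusted p = 5e-07) and Klf6 (-1.33, SE 0.13, adjusted p = 1.6e-05) were lower. Jun and Fos thus lay on the side of Gadd45b and Klf6 and not of Nr4a1.

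Among the DNA-binding partners, 2 of 6 NFAT and IRF genes were lower in the thymus, Irf4 (log2 difference -3.15, SE 0.50, edgeR adjusted p = 0.0006) and Nfatc1 (-2.19, SE 0.22, adjusted p = 2e-05), and none was higher. Of 22 other bZIP genes, 8 were lower, led by Maf (-7.64, SE 0.54, edgeR adjusted p = 1e-06), Nfil3 (-5.80, SE 0.96, adjusted p = 0.00084) and Cebpb (-3.92, SE 0.46, adjusted p = 6.4e-05), and 2 were higher, including Bach2, a repressor that competes with AP-1 for sites (1.81, SE 0.29, adjusted p = 0.00072). Of 19 kinases and SRF inputs 3 were higher and 3 lower. These counts, too, stand beside 23% of all genes called, and no list was tested as a set. AP-1 responsive genes such as Gzmb, Ifng and Il17a were at 0 in the thymic WT libraries, and 8 of 11 tested on that list were lower and 1 higher. List medians were -0.23 for bZIP, 0.12 for kinases, 0.36 for feedback and 0.13 for immediate-early genes, beside -0.04 for all genes. No list had a called gene in either adult degron contrast.

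With Foxp3 restored, genes of the surrounding pathway were called beside 4.73% of all genes in resting and 6.22% in active cells. In resting cells 0 of 20 immediate-early genes were called by edgeR. The feedback genes Dusp6, an ERK phosphatase (log2 difference -0.86, SE 0.13, edgeR adjusted p = 0.00094), and Spry1 (-0.79, SE 0.13, adjusted p = 0.0012) fell, as did the kinase Map2k6 (-0.54, SE 0.15, adjusted p = 0.046) and the bZIP gene Nfe2l2 (-0.52, SE 0.07, adjusted p = 0.00037). These were all the called genes of the bZIP, kinase, feedback and immediate-early lists there. Of 11 AP-1 responsive genes 3 rose and 1 fell. Among those that rose was Il2ra, which was also listed as a Treg marker (1.152, SE 0.11, edgeR adjusted p = 7.3e-06). In active cells Rgs1 (-0.91, SE 0.14, edgeR adjusted p = 0.00068), Egr2 (-0.56, SE 0.16, adjusted p = 0.045) and Myc (-0.36, SE 0.07, adjusted p = 0.0038) fell, 3 of 20 immediate-early genes, and none rose. Irf4 (-0.50, SE 0.08, edgeR adjusted p = 0.0011) and Bach2 (-0.57, SE 0.15, adjusted p = 0.03) fell and Jdp2, a bZIP repressor that pairs with Jun, rose (1.42, SE 0.20, adjusted p = 0.00021). Of 12 AP-1 responsive genes in active cells 3 rose, among them Il2ra (0.79, SE 0.10, edgeR adjusted p = 9.5e-05), and 4 fell, among them Il17a (-4.51, SE 0.20, adjusted p = 1.1e-09) and Il4 (-2.46, SE 0.23, adjusted p = 3e-06).

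Between states, 37.9% of all 20790 genes were called in minusFoxp3 cells, 4076 higher and 3799 lower in active cells. Beside that share, 4 of 6 NFAT and IRF partners were higher in active minusFoxp3 cells and none lower. Of 12 AP-1 responsive genes, 9 were higher and none lower. Other lists were divided, with 9 of 22 other bZIP genes higher and 6 lower, 6 and 5 of 20 immediate-early genes and 3 and 6 of 16 feedback inhibitors. Nfil3 (log2 difference 2.66, SE 0.17, edgeR adjusted p = 2.7e-13) and Maf (2.01, SE 0.20, adjusted p = 2e-09) stood on the side of Fosl2, and Bach2 (-1.29, SE 0.11, adjusted p = 1.4e-10) on the opposite side.

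Across the 22 group means of the reversible system, Jun, Fos and Fosb varied together, with Pearson r of 0.82 for Jun and Fosb, 0.80 for Jun and Fos and 0.75 for Fos and Fosb. Junb followed Jun less (r = 0.21), and Jund and Fosl2 ran in opposite directions (r = -0.56). The gene most like Junb was Faah (r = 0.89), the one most like Jund was Sik1 (r = 0.90) and the one most like Fosl2 was Dst (r = 0.97). Those most like Jun were Fosb, Gm10382 (r = 0.81) and Leng9 (r = 0.81), and most like Fosb were the unnamed genes ENSMUSG00000120586 (r = 0.95) and ENSMUSG00000120667 (r = 0.92). These are descriptions over 22 points that share libraries, numbering and state.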

How the data were processed

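RNA was amplified with SMART-Seq v4 from 1-2 ng of total RNA. The authors deposited raw counts of read pairs per gene. Their methods give STAR and featureCounts, the submitters' processing notes list Bowtie2, featureCounts, DESeq2 and mm39 without roles, and file headers give featureCounts 2.0.3 without strand. The headers of 20 degron files restrict counting (mapping quality 30 or more, primary and non-chimeric reads), and those of the 44 other files do not, so levels were not tested across the systems.

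The counts were fitted with edgeR 4.0.16 in R 4.3.3 (TMM, robust quasi-likelihood F test, 1 mean per group) over all genes with a mean count of at least 10, and genes with a Benjamini-Hochberg adjusted p under 0.05 were called. DESeq2 1.42.0, RLE factors, no filter, a replicate block and leaving out libraries were the alternatives. The members and lists were chosen with earlier results of these data known. Named genes are the members, Foxp3 and, from each list, called genes with the largest changes (at most 3 per direction, mean count at least 100). Promoter sequences and all levels come from files, and intervals cover counting and replicate error only. Each edgeR SE was computed as the size of the log2 difference over the square root of its F statistic. The 95% intervals use a normal multiplier of that SE, so with few libraries they are approximate. The fits were checked on simulated counts.

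Deviations of resting and active minusFoxp3 libraries with the same day and number correlated at 0.23 to 0.43 on all 5 days, so they were taken as pairs, a pairing that comes from the data and not from the labels. Same-numbered resting minusFoxp3 libraries of day 0 and of later days also correlated (0.16 to 0.34), and active ones did at 0.016 to 0.60. Resting with active plusFoxp3 libraries ranged from -0.06 to 0.46, and plusFoxp3 with minusFoxp3 libraries from -0.07 to 0.31. TIR1 with WT libraries, by title in infants, ranged from -0.27 to 0.18. The closest pair of libraries in a group differed by a chi-square of 15.8 per gene, above sampling noise.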

Additional observations from a re-analysis of the deposited data

Results flagged for a closer look

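In groups of 4 libraries, values were examined for a library that stood apart from the others by more than Dixon's 95% limit on the gap relative to the range, which chance gives in about 1 in 20 groups. Among 18 such sets of infant values, Fosb stood apart in 1 library titled TIR1, at 4.19 CPM against 2.36, 2.49 and 2.61 CPM in the other libraries. That library also had the highest Fos, at 129 CPM, and the highest Junb, at 981 CPM, of the group. Batf3 stood apart in another library titled TIR1, at 0.0297 CPM, which is a single read pair, with the other 3 libraries at 0.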

How the results depend on the processing

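Most member results kept their direction and their side of the threshold. With RLE factors all 81 tests of single members stayed as they were, with DESeq2 79 of 81, and with the replicate block (the replicate number as a term) 80 of 81. With the replicate block, 3 members instead of 2 were called between states, Jund being added (-0.37, edgeR adjusted p = 0.025), and no other count changed. Under DESeq2, 1 member (Jun) was called in thymic degron cells instead of 0. Under the recorded attachment of the files, 7 of 7 members tested were higher in active TIR1 cells instead of 0. Without the count filter, 4 members were called for restoration in resting and 4 in active cells (3.88% and 4.56% of all genes), 1 for active GFP Treg cells (Jund, 6.01%), 7 between states (15.9%), and 3 and 2 among days in resting and active cells (963 of 49181 and 897 of 49200 genes). The cause was not tested. Among libraries numbered 2 alone, with days as replicates, 3 and 4 members were called for restoration in resting and active cells. That split was chosen after the data were seen, and no effect of restoration is read from it. Between states, the fit of only the libraries compared called 1 member (Fosl2), the block of pairs 7 and that over all groups 8 (48.5% of all genes), and leaving out 1 library gave 1 to 3. In the restoration fit, which has 2 libraries per group and no block, differences of Fos within about 2-fold could not be resolved.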
